A study of Mus musculus with 79 samples.

Results

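The promoters described here had H3K4me3 and H3K27me3 signal under a fixed limit in the wild-type hypothalamus and belonged to genes with little or no RNA there. They were taken from autosomal genes whose mean over the +/+ RNA-seq libraries was under 0 on the log2 RPKM scale. A promoter ran from 1500 bp before to 500 bp after the gene start in the deposited expression table, and its ChIP signal was the mean of the 2000-bp tiles whose centre lay inside it, usually 2 tiles. A promoter was kept when its +/+ mean was under 1 RPM (reads in a tile scaled to the mapped reads of the library) for H3K4me3, under 1.5 RPM for H3K27me3 and from 0.4 to 1.5 RPM for input chromatin. This selected 6515 of the 25965 promoters of the table, or of 13519 silent autosomal promoters. They are called unmarked silent promoters below for lying under both limits, which does not exclude a low level of H3K27me3. Because expression, H3K4me3, H3K27me3 and input of the +/+ animals chose them, differences between genotypes in these 4 measures are given as descriptions. H3K36me3, DNA sequence and position played no part in the choice. The enrichment of marks over input in the other genotype was not used either. For H3K4me3 and H3K27me3 it is not independent of the +/+ limits, since most promoters met the same limits in both genotypes.

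The data came from the hypothalamus of C57BL/6Babr mice aged about 14 weeks. RNA-seq covered 5 +/+ and 4 Δ/D329A animals, with 1 library per animal. Native ChIP-seq covered 3 animals of each genotype, each of which gave an H3K4me3, an H3K27me3, an H3K36me3 and an input library. The RNA libraries were from females, with 2694 to 7044 reads on Xist and 0 or 1 read on Kdm5d, Eif2s3y, Uty and Ddx3y together. The ChIP animals were males, with median input at X-linked promoters 0.435 to 0.469 times that at autosomal ones, so that the rule joined expression in females with chromatin in males. In Δ/D329A mice the maternal Dnmt3a allele (Δ) lacked exon 18, removed in the oocyte by Cre driven by the Zp3 promoter, and the paternal allele carried the D329A substitution in the PWWP domain, so that the D329A allele was the only one with exon 18. Animals were drawn from several litters by genotype and age. The whole hypothalamus was sampled, in which fewer cells of a type and less RNA per cell cannot be told apart. RNA libraries held 5617932 to 9976687 reads on genes in +/+ and 3874084 to 6598737 in Δ/D329A, and ChIP libraries held 12676361 to 30207875 mapped reads. The 16 marker genes of hypothalamic neurons summed to 368 to 756 RPKM in +/+ and 437 to 644 RPKM in Δ/D329A. Dnmt3a itself, counted over the whole gene, had 5061 reads in +/+ and 2573 in the shallower Δ/D329A libraries (log2 difference -0.28 ± 0.13 SE, limma adjusted p = 0.355). That value does not separate the alleles.

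An active mammalian gene start usually carries H3K4me3, and a CpG-rich start that is silent is commonly covered by H3K27me3, the mark laid down by Polycomb repressive complex 2. H3K36me3 is left along the body of a transcribed gene and is bound by the PWWP domain of DNMT3A. Tissue-specific genes with CpG-poor promoters, such as those of sensory receptors, skin structural proteins and digestive enzymes, are known to stay silent elsewhere without either mark at the start. The other 4 classes, used for comparison, were 1801 silent promoters with H3K27me3 only, 2933 with H3K4me3 only, 1480 with both marks, and 10905 promoters of expressed genes.

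CpG dinucleotides were scarce at unmarked silent promoters. The following sequences show this for the 250 bases before the start as the table gives it (mouse build GRCm38, written 5′ to 3′ on the strand of the gene, each CG in capitals). Olfr1264 and Vmn1r194 stand for the chemosensory receptor families, 1700087M22Rik for predicted gene models and Matn1 for the gene with the largest RNA difference described below. Olfr1264 (chr2:90022065-90022314, minus strand) held 2 CG, Vmn1r194 (chr13:22243965-22244214, plus strand) 0, 1700087M22Rik (chr14:30778005-30778254, minus strand) 1, and Matn1 (chr4:130944135-130944384, plus strand) 4.
Olfr1264: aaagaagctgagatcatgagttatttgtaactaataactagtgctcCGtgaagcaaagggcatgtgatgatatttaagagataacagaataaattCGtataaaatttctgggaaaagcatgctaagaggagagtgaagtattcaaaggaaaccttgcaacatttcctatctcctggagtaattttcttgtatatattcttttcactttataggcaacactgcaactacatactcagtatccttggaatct
Vmn1r194: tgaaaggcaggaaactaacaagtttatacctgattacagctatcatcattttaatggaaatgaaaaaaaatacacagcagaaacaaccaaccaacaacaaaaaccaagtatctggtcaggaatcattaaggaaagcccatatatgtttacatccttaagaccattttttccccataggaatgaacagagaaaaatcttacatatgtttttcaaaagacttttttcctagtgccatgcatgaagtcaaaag
1700087M22Rik: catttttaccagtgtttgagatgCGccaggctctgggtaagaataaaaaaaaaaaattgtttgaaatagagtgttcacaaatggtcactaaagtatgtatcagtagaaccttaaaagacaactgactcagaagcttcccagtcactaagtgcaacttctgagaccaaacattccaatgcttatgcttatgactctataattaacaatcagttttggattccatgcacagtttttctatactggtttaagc
Matn1: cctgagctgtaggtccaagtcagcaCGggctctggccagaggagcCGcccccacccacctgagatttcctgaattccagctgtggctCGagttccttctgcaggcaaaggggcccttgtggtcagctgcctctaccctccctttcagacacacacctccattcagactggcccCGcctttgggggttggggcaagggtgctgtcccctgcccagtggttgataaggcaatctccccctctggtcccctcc

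Promoters of 3 of the other classes are shown in the same way for contrast. Gm13056 (chr4:141278189-141278438, plus strand) lay just over the H3K27me3 limit and held 5 CG. Pax6 (chr2:105668646-105668895, plus strand), an eye and brain patterning factor, had both marks and held 15. Sfmbt1 (chr14:30714599-30714848, plus strand), the expressed gene in whose body 1700087M22Rik lies, held 6. Pax6, Sfmbt1 and 1700087M22Rik were chosen after their values were seen.
Gm13056: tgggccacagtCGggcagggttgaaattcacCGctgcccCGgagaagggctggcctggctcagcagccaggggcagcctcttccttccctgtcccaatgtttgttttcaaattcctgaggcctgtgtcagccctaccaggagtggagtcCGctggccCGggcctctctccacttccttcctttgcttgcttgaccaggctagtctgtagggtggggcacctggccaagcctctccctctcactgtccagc
Pax6: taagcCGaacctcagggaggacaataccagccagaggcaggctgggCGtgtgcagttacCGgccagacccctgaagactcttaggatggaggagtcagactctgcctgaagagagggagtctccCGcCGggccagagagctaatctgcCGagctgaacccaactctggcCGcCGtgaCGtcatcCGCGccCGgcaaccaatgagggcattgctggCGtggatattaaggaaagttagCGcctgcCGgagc
Sfmbt1: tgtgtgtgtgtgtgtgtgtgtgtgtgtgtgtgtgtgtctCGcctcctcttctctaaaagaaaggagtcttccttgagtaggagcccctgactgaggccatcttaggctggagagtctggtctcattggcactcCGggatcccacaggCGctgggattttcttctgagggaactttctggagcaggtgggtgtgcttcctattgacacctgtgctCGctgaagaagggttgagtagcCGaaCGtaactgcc

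Over the whole promoter from 1500 bases before to 500 after the start, the median ratio of observed to expected CpG was 0.177 at unmarked silent promoters, with quartiles of 0.123 and 0.243. Promoters with H3K27me3 only were close to this, with a median of 0.199. The medians were 0.480 with both marks, 0.484 with H3K4me3 only and 0.582 at expressed genes. A ratio over 0.6, a usual criterion of a CpG island, was met by 11 unmarked silent promoters (0.169%), against 2.61% with H3K27me3 only, 25.5% with both marks, 30.8% with H3K4me3 only and 45.8% of expressed promoters. In the 300 bases from 250 before to 50 after the start, the median was 3 CG at unmarked silent promoters, 4 with H3K27me3 only, 15 with both marks, 14 with H3K4me3 only and 20 at expressed promoters. No CG at all was found in these 300 bases at 13.5% of unmarked silent promoters, 8.11% with H3K27me3 only, 0.338% with both marks, 0.682% with H3K4me3 only and 0.660% of expressed ones. Among the unmarked olfactory receptors this share was 35.3%.

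**Figure D1:**
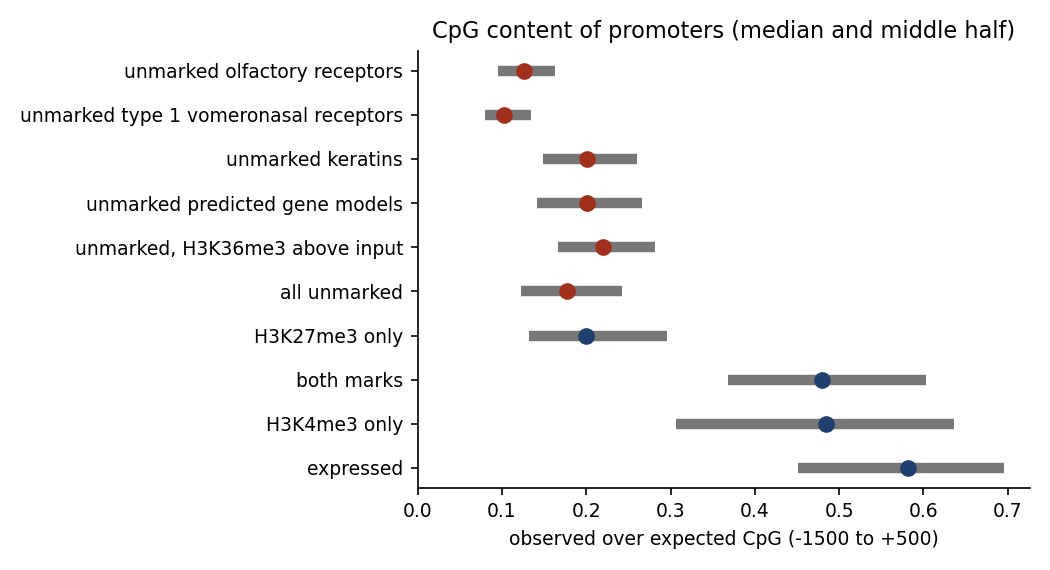
Observed over expected CpG (horizontal axis, no unit) from 1500 bases before to 500 after the start, with points at the median and bars between the quartiles, for unmarked silent promoters and their families (red) and for the other classes (blue). The unmarked sets plotted and the H3K27me3-only class had medians at or below 0.220, while the other 3 classes had medians of 0.480 or more.

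The TATA box motif was more frequent and the GC box less frequent than at expressed promoters. The TATA box motif TATAAA was searched on the strand of the gene in the 50 bases before the start. It was found at 5.80% of unmarked silent promoters, 5.50% with H3K27me3 only, 2.43% with both marks, 1.40% with H3K4me3 only and 1.11% of expressed promoters. Over the 5 classes together the share was 2.86%. The motif was most frequent in particular families: 48.6% of unmarked promoters of cornified envelope genes, 45.9% of keratins and keratin-associated proteins, 27.3% of crystallins, 25% of digestive enzymes and 22.4% of cytochrome P450 genes held it, and 4.16% of olfactory receptors. The GC box GGGCGG was searched on both strands in the 300 bases around the start. It was found at 7.74% of unmarked silent promoters, 17.2% with H3K27me3 only, 57.5% with both marks, 49.7% with H3K4me3 only and 62.3% of expressed ones. Bases masked as repeats made up a median of 20.05% of an unmarked silent promoter, 16.75% of one with H3K27me3 only and 15.25% of an expressed one. These are matches of letters and were not tested for binding.

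Many unmarked silent promoters belonged to gene families known from other tissues. GENCODE M21 gave a biotype to 87.6% of the symbols of the table. By it, 3964 were protein coding, 1322 long non-coding and 389 pseudogenes, 31 were of other kinds, and 809 symbols had no match. Olfactory receptors, which detect odorants in the nasal epithelium, were the largest family of proteins: 937 of the 1103 in the table were unmarked and silent, 153 had H3K27me3 only, and 3 had H3K4me3 only. Pheromone receptors of the vomeronasal organ gave 128 of 201 type 1 and 89 of 124 type 2 genes, and taste and trace amine receptors gave 47 of 53.

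Families of the skin, gut, liver, placenta and immune system were also among them. Of all 13519 silent autosomal promoters, 6515 were unmarked. Some families were near that share of their silent genes, such as defensins with 29 of 54 and cytochrome P450 enzymes with 49 of 84. Kallikreins gave 9 of 27 silent genes and Mas-related receptors 9 of 19. The counts that follow are out of all autosomal genes of a family. Over all 24483 autosomal genes, 6515 were unmarked and silent. Of the cornified envelope genes, which harden the outer epidermis, 37 of 41 were unmarked and silent, and of keratins and keratin-associated proteins 61 of 101, with a further 35 carrying H3K27me3 only. The placental prolactin family gave 24 of 25 genes, digestive enzymes 24 of 31, sulfotransferases and UDP-glucuronosyltransferases, which conjugate drugs and hormones, 28 of 38, and cytochrome P450 enzymes 49 of 98. Serpins gave 36 of 59, C-type lectins and natural killer cell receptors 40 of 60, interleukins 24 of 39, defensins 29 of 54, testis-specific genes 51 of 111 and oocyte genes 37 of 54. Developmental homeobox factors were rarely unmarked. Of 142, 4 were unmarked, while 66 had H3K27me3 only and 59 had both marks. Predicted gene models gave 2736 of 6384, or of 5518 silent ones, which is near the share of all silent promoters. A further 2074 unmarked silent promoters belonged to no list.

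Unmarked silent promoters lay next to each other in long stretches. Of the 6515, 1974 (30.3%) stood in runs of 5 or more genes with no promoter of another kind in between, and 2312 (35.5%) stood alone. The longest run reached from Gm13715 to Olfr73 (chr2:85233675-88035137), over 135 genes of which 128 are olfactory receptors. All 5 +/+ libraries together gave 118 reads on these genes and all 4 Δ/D329A libraries gave 47. Another run on the same chromosome, from Olfr1162 to Olfr1264 (chr2:88050622-90022064), held 91 genes, 84 of them olfactory receptors, with 2 and 13 reads. The third, from Olfr99 to Rhag (chr17:37280418-40811126), held 60 genes. The cornified envelope genes formed a run of 35 from Sprr2b to Lce3c on chromosome 3, and a run of 32 from Fpr-rs4 to Vmn1r229 on chromosome 17 held 27 vomeronasal receptors. The median distance from an unmarked silent start to the nearest start of an expressed gene was 105 kb, against 76.7 kb for promoters with H3K27me3 only and 18.8 kb with H3K4me3 only.

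Most of the genes had few or no reads, as the rule had asked of the +/+ libraries. No read was found in any of the 9 libraries for 3194 of the 6515 (49.0%), against 39.3% of genes with H3K27me3 only, 7.98% with H3K4me3 only and 6.35% with both marks. The unmarked silent genes took 0.188%, 0.177%, 0.170%, 0.249% and 0.243% of the reads on genes in the 5 +/+ libraries, and 0.245%, 0.229%, 0.258% and 0.209% in the 4 Δ/D329A libraries. The ranges of the genotypes overlapped. Between 1207 and 1874 of the genes (18.5% to 28.8%) had a read in a library. Between 255 and 455 had 10 reads or more in a library, and 35 to 87 stood at 0 log2 RPKM or more.

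Reads were spread unevenly. Over all 9 libraries the 6515 genes had 119790 reads, of which 20 genes held 15.4% and 823 genes held 90%. The highest numbers were those of Ttn, the giant elastic protein of muscle, with 2150 reads, Vwf, the clotting factor of endothelial cells, with 1590, and Kctd18 with 1411. Olfactory receptors had 140 reads in +/+ and 173 in Δ/D329A, and 799 of the 937 had none in any library. Their reads per library were 38, 18, 14, 44 and 26 in +/+ and 36, 27, 101 and 9 in Δ/D329A, so that the highest and the lowest library were both Δ/D329A. For Igkv13-87, Sprr4, Krtap16-10a and Oosp1, each with the highest Δ/D329A value of its family, no library held a read, and the deposited values are the floor of 0.9 reads divided by a short gene.

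At the limits of the rule the neighbours differed little. For H3K4me3, Gm13442 at 0.9995 RPM and Gm17141 at 0.99935 RPM were the last inside and Lat2 at 1.0003 RPM and D130062J21Rik at 1.0007 RPM the first outside. For H3K27me3 these were Doxl2 at 1.4998 RPM and Stfa3 at 1.4989 RPM against Gm13056 at 1.5001 RPM and Gm9944 at 1.5005 RPM, and for expression Gm15521 at -0.0010 and Gm11114 at -0.0069 log2 RPKM against Gm10654 at 0.0018 and Zfp78 at 0.0025. Input bounded the set at Cyp2a4 (0.40155 RPM) and Olfr108 (0.40169 RPM) from below, with Gm2832 (0.39907 RPM) and Vmn2r44 (0.39775 RPM) outside, and Muc2 (1.4908 RPM) and Gm14401 (1.4905 RPM) were the last inside at the upper limit. When the same 4 limits were put on the Δ/D329A means, 6245 promoters met them, and 5904 promoters met both (90.6% of those chosen in +/+ and 94.5% of those chosen in Δ/D329A). Of the others, 425 exceeded the H3K27me3 limit alone in Δ/D329A, 78 the H3K4me3 limit alone and 9 both limits, and 66 exceeded the expression limit.

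The median promoter was near the genome at large for H3K36me3 and above it for H3K27me3. The median H3K36me3 was 0.9 to 0.955 times the median tile of the same library. For H3K27me3 this ratio was 1.5 to 1.59 in all 6 libraries, for H3K4me3 1.0 to 1.5 and for input 1.05 to 1.10. In +/+ the median promoter had 0.811 to 0.881 RPM of H3K27me3 and in Δ/D329A 0.840 to 0.863 RPM. The H3K4me3 medians were 0.131 to 0.2 RPM in +/+. In the Δ/D329A libraries they were 0.376, 0.118 and 0.129 RPM, and the first of these libraries also had the highest genome median of all H3K4me3 libraries.

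Enrichment over input in Δ/D329A was tested with limma across all promoters, with the 3 libraries of a mark against 3 inputs of the same animals. The labels do not say that equal numbers mark an animal, and the fit has no pairing. For H3K4me3, 56.1% of all promoters were called above input and 31.1% below, at an adjusted p under 0.05. Among unmarked silent promoters 3 were above (Rec8, Aqp6 and Pstpip1), and 5395 (82.8%) were below. With the replicate number as a block, Rec8 alone stayed above (limma adjusted p = 0.0248), while Aqp6 had an adjusted p of 0.10 and Pstpip1 of 0.101. For H3K27me3, 22.7% of all promoters were above input and 44.1% below, against 982 (15.1%) and 1238 (19.0%) of the unmarked silent ones, whose median log2 ratio to input was -0.004. These counts are relative to the read total of each library. With each library centred on its median over all promoters, 3872 unmarked silent promoters were above input for H3K27me3 and 604 below, and 0 were above for H3K4me3. The median log2 ratio of all promoters for H3K27me3 was -0.37 before centring, which shifted every promoter. The centred counts are therefore not read as a trait of the unmarked silent promoters.

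H3K36me3 separated the unmarked silent promoters by position. In Δ/D329A, 3.54% of all promoters were called above input for H3K36me3 and 74.6% below. Of the unmarked silent promoters, 474 (7.28%) were above and 3814 (58.5%) below, so that they made up 474 of all 920 promoters called above input. The corresponding shares above input were 0.888% with H3K27me3 only, 3.24% with H3K4me3 only, 0.608% with both marks and 2.49% of expressed promoters. Centring the libraries on their medians changed the counts for unmarked silent promoters to 2554 above and 94 below. The median log2 ratio of all promoters was -1.14 before centring, which shifted every promoter, so these counts are not read as a trait of the unmarked silent ones.

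A total of 735 unmarked silent promoters (11.3%) lay inside another gene that was expressed in +/+, 517 inside a silent gene and 5263 inside no gene of the table. Of those inside an expressed gene, 291 (39.6%) were called above input for H3K36me3, against 156 (2.96%) of those inside no gene. The share was 43.8% of 379 promoters where the surrounding gene reached 2 log2 RPKM, 41.1% of 604 promoters on the strand opposite to it and 32.8% of 131 on its own strand. For promoters of the other classes inside an expressed gene, 61 of 682 with H3K4me3 only (8.94%), 96 of 881 expressed (10.9%) and 2 of 24 with H3K27me3 only were above input.

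The shares by position were not tested against each other, and the levels behind them were alike among libraries. Inside an expressed gene the median H3K36me3 was 1.01, 1.04 and 1.07 RPM in the +/+ libraries and 1.05, 1.03 and 1.02 RPM in the Δ/D329A libraries. Inside no gene it was 0.438, 0.450 and 0.419 RPM in +/+ and 0.487, 0.442 and 0.472 RPM in Δ/D329A. All 6 libraries of the former thus lay above all 6 of the latter. H3K27me3, which the rule had limited, was the other way round, with 0.315 to 0.330 RPM inside an expressed gene and 0.871 to 0.944 RPM inside no gene in +/+. Expressed promoters themselves had 0.190 to 0.236 RPM of H3K36me3 in +/+, below the unmarked silent promoters inside an expressed gene, inside a silent gene or inside none.

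**Figure D2:**
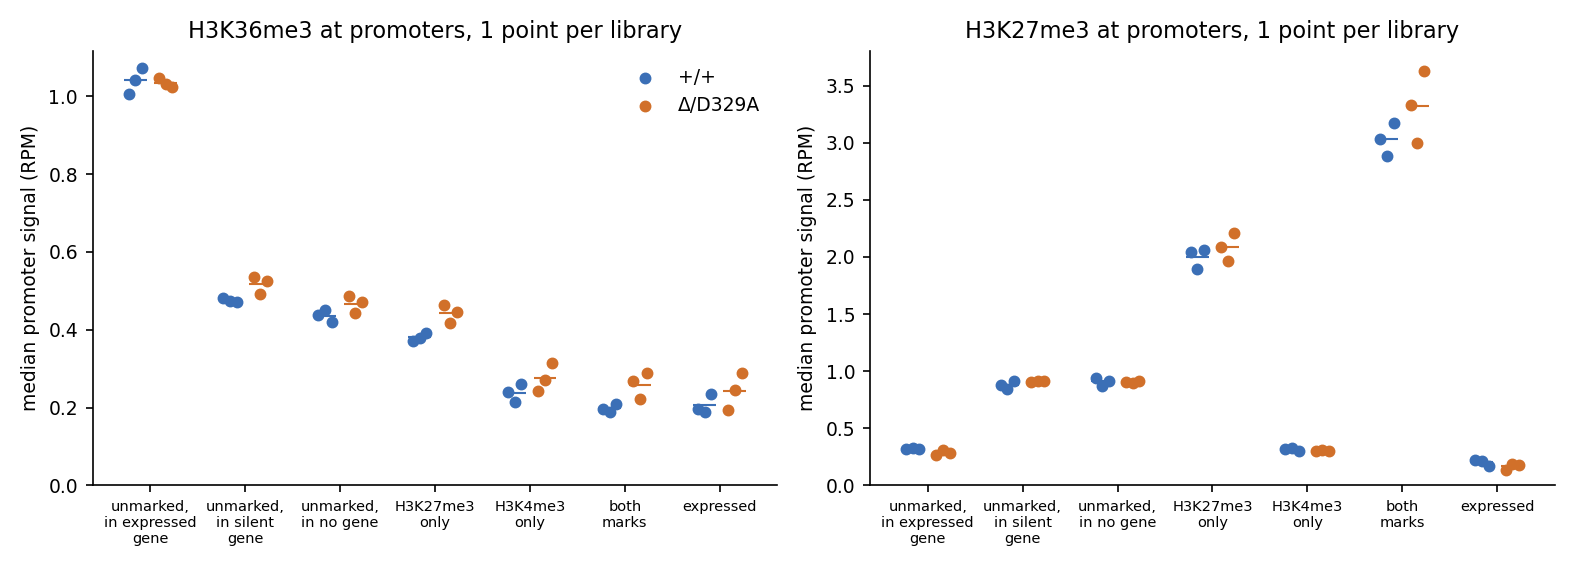
Median promoter signal (vertical axis, RPM) of H3K36me3 (left) and H3K27me3 (right) in each library, with +/+ in blue and Δ/D329A in orange and a line at the mean of 3 libraries. Unmarked silent promoters inside an expressed gene have H3K36me3 medians from 1.01 to 1.07 RPM in all 6 libraries, the highest of the 7 groups, while their H3K27me3 is near that of promoters with H3K4me3 only.

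Along 20 kb to each side of the start, mean H3K36me3 of unmarked silent promoters inside an expressed gene stayed between 1.02 and 1.31 RPM at the positions compared in +/+ and was 1.22 to 1.28 RPM at the start itself. Expressed promoters showed a trough of 0.235 to 0.282 RPM at the start and 1.402 to 1.423 RPM at 10 kb inside the gene. Unmarked silent promoters inside no gene had 0.495 to 0.512 RPM at the start and 0.618 to 0.637 RPM 20 kb after it. Their H3K27me3 was 0.891 to 0.965 RPM at the start and 0.829 to 0.9 RPM 20 kb before it, and at promoters with H3K27me3 only it was 2.55 to 2.77 RPM at the start. This difference at the start, and the low H3K4me3 there, follow from the rule.

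**Figure D3:**
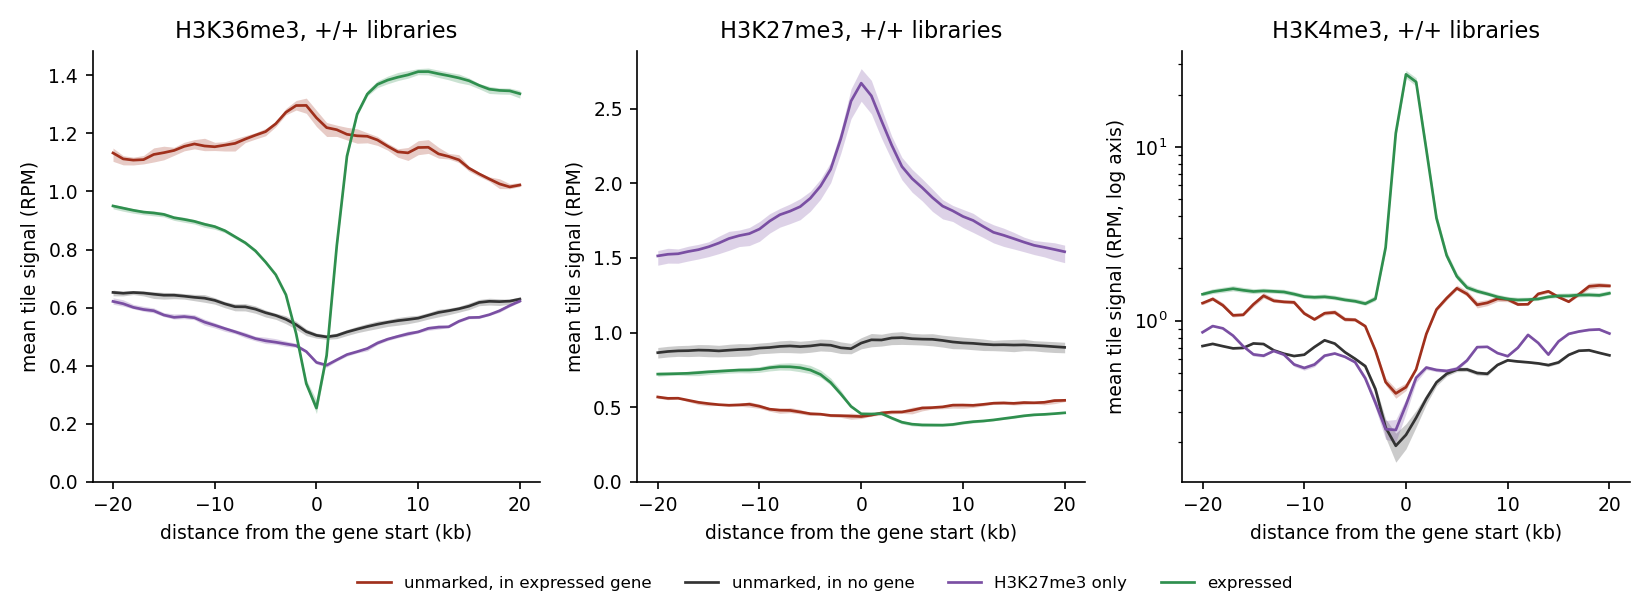
Mean tile signal (vertical axis, RPM, logarithmic for H3K4me3) by distance from the gene start (horizontal axis, kb) in the +/+ libraries, with lines at the mean and bands over the lowest to highest of 3 libraries. H3K36me3 at unmarked silent promoters inside an expressed gene (red) stays above 1 RPM across the start, where expressed promoters (green) have a trough.

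The family of a gene went with its position. Of the unmarked silent long non-coding genes 32.1% lay inside an expressed gene, of predicted gene models 22.8% and of protein-coding genes 3.68%. None of the 937 olfactory receptors did, and 4 of them were called above input for H3K36me3. Their H3K36me3 medians were 0.419 to 0.460 RPM in +/+ and 0.467 to 0.499 RPM in Δ/D329A. Type 2 vomeronasal receptors had 0.263 to 0.288 RPM in +/+, and the placental prolactin family 0.667 to 0.806 RPM. Vmn1r79 with 0.044, 0 and 0 RPM and Vmn2r48 with 0.044, 0.024 and 0.079 RPM in +/+ were lowest of all.

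Among unmarked silent promoters inside an expressed gene, the largest log2 ratios to input were those of Gm17233 inside Rb1, 4931431C16Rik inside Acox3, Gm17036 inside Kif5b, Gm12265 inside Tom1l2 and 1700087M22Rik inside Sfmbt1. These genes were picked by this ratio, so their values are descriptions. All 5 are annotated as long non-coding, and 4 of them lie on the strand opposite to the surrounding gene. 4931431C16Rik (chr5:35581227-35588763) had 4.75, 4.15 and 4.50 RPM of H3K36me3 in +/+ and 4.80, 4.25 and 4.43 RPM in Δ/D329A. The groups overlapped, and its input in Δ/D329A was 0.995 RPM. For 1700087M22Rik (chr14:30770681-30778004) the values were 3.48, 3.30 and 3.35 RPM in +/+ and 2.99, 2.88 and 2.81 RPM in Δ/D329A. These groups did not overlap, but the difference did not pass (log2 difference -0.22 ± 0.11 SE, limma adjusted p = 0.780). It had no read in any RNA library, and neither had Gm12265.

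The 5 highest H3K36me3 means of all unmarked silent promoters in +/+ were found outside expressed genes, AL929042.1 inside a silent gene and the other 4 inside no gene of the table. Gm10509 (chr17:21690766-21691024) had 6.46, 8.32 and 6.49 RPM in +/+ and 5.72, 6.91 and 5.35 RPM in Δ/D329A. Gm10226 (chr17:21691860-21692114), which shares a tile with it, had 5.78 to 8.44 RPM in +/+. AL929042.1 (chr2:150323702-150363071) had 6.52 to 7.04 RPM, AC102606.1 (chr7:42578466-42578588) 5.60 to 6.66 RPM and Gm4924 (chr10:82378593-82381237) 5.44 to 6.33 RPM. In each of the 5 the ranges of the genotypes overlapped, except for AL929042.1, where Δ/D329A had 4.33 to 6.44 RPM (limma adjusted p = 0.798).

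H3K4me3 peaks stood at a distance from several of these starts. The highest H3K4me3 tile within 25 kb of AL929042.1 lay 11.7 kb upstream, with 15.2 to 16.4 RPM in +/+ and 12.3 to 20.4 RPM in Δ/D329A. The start that RefSeq gives for Gm10509 lay 10889 bp upstream of the start in the table and had 15.8 RPM of H3K4me3 in +/+, against 0.474 RPM at the start in the table measured the same way. For Gm4924 the RefSeq start was 24068 bp upstream, with 23.3 RPM. No such tile was found near AC102606.1, where the highest had 0.716 RPM.

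**Figure D4:**
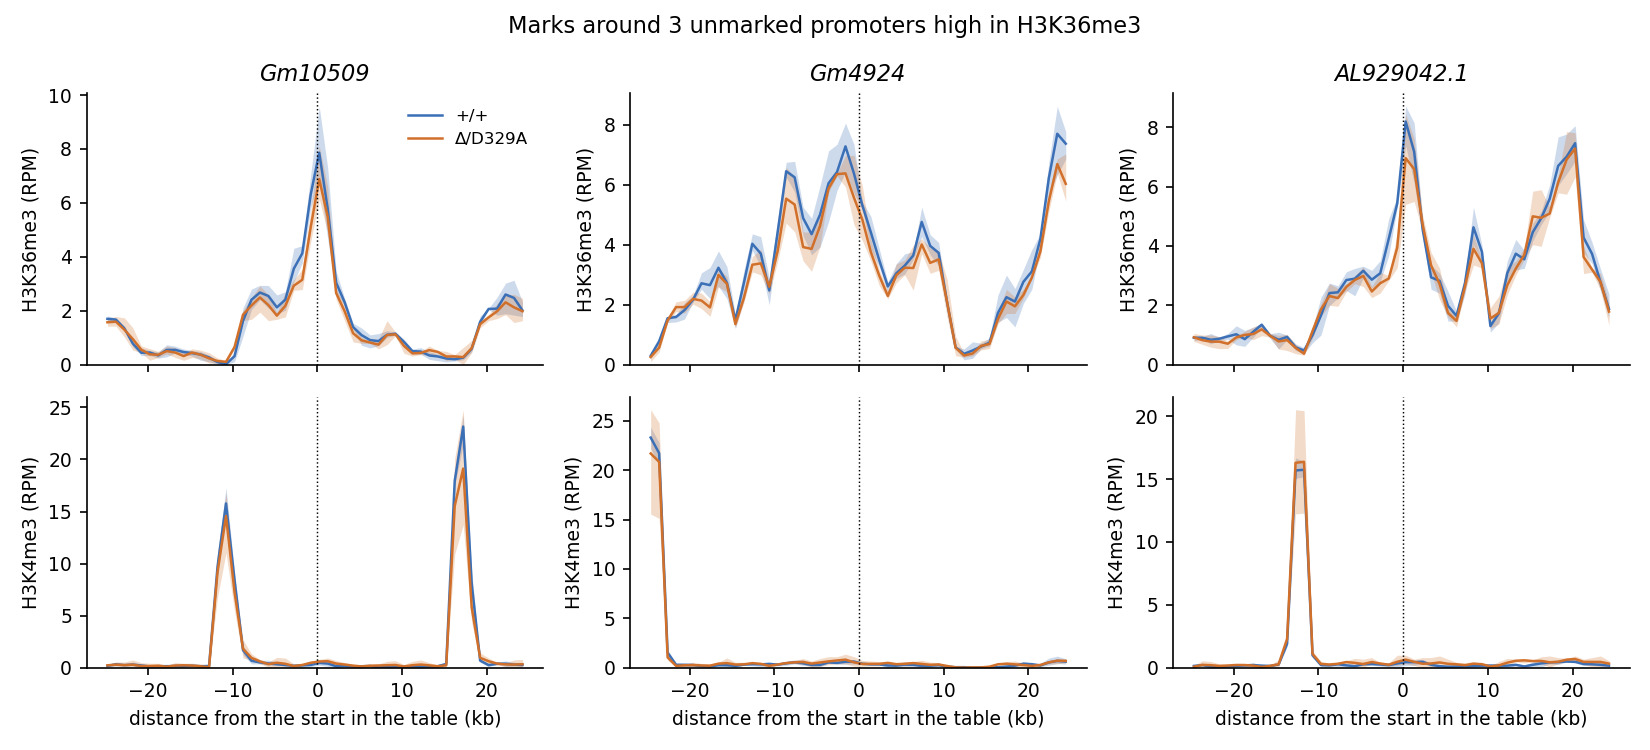
H3K36me3 (top) and H3K4me3 (bottom) in tiles (vertical axes, RPM) by distance from the start in the expression table (horizontal axis, kb; positive is downstream) for Gm10509, Gm4924 and AL929042.1, with lines at the mean of 3 libraries and bands over their range. H3K36me3 is high at each start, and the nearest H3K4me3 peaks lie 10 kb or more away in both genotypes.

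RefSeq gave a start for 3562 of the unmarked silent genes. It lay within 500 bp of the start in the table for 88.2% of them and more than 1500 bp away for 354 (9.94%). At a RefSeq start, 96 of the 3562 (2.70%) had 5 RPM or more of H3K4me3, against 97.1% of expressed genes. Of the unmarked silent genes called above input for H3K36me3, 173 had a RefSeq start, which was more than 1500 bp away for 20.8% and had 5 RPM or more of H3K4me3 for 11.6%. Among those not above input these shares were 9.38% and 2.24%.

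The genotypes were then compared for H3K36me3. Over all promoters, 4 were called higher in Δ/D329A (0.0154%) and 2 lower (0.0077%) at a limma adjusted p under 0.05, and none of the 6515 unmarked silent promoters was among them. At an unadjusted p under 0.05, 278 of these were higher (4.27%) and 114 lower (1.75%), near the 5.18% and 1.39% of all promoters. edgeR was run on the reads of the 1 tile nearest the middle of a promoter. It called 0 of the 3504 it could test, which was also its count over all promoters (0%). At an unadjusted edgeR p under 0.05, 98 were higher (2.8%) and 113 lower (3.22%), near the 3.09% and 2.99% of all promoters it tested. The 3 libraries of each genotype did not overlap at 511 unmarked silent promoters higher in Δ/D329A (7.84%) and at 236 lower (3.62%), against 8.99% and 2.67% of all promoters. The median log2 difference was 0.07 at unmarked silent promoters and 0.11 over all, and with libraries centred on their median it was -0.14 at unmarked silent promoters.

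The median H3K36me3 of all unmarked silent promoters was 0.476 ± 0.005 RPM (SD, n = 3) in +/+ and 0.5004 ± 0.010 RPM (SD, n = 3) in Δ/D329A. The groups did not overlap (two-sided exact permutation p = 0.1, the smallest that 3 against 3 can give). Inside an expressed gene the medians were 1.04 ± 0.03 and 1.03 ± 0.01 RPM (exact permutation p = 0.8), and promoters with H3K27me3 only had 0.381 ± 0.010 and 0.442 ± 0.023 RPM (exact permutation p = 0.1). In simulated libraries, limma recovered 194 of 200 promoters changed by 3 on the log2 scale and 0 of 200 changed by 1. In this setting limma did not detect changes of the latter size at single promoters. The changed promoters were drawn from all promoters, so the limit for those with more signal was not tested.

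Among promoters without overlap between the genotypes, the largest rises of H3K36me3 were those of Glp2r, a gut hormone receptor, Vmn1r66, a pheromone receptor, and AC124113.1. Glp2r (chr11:67661502-67771153) had 0.109, 0.095 and 0.052 RPM in +/+ and 0.463, 0.344 and 0.499 RPM in Δ/D329A, a log2 difference of 1.53 ± 0.28 (SE, limma adjusted p = 0.718). Every Δ/D329A value was above every +/+ value, and the highest of the 6 was close to the median of unmarked silent promoters. The largest falls were those of Clps, the pancreatic cofactor of lipase, Gm13399 and Cd27, a receptor of lymphocytes. Clps (chr17:28558210-28560766) had 0.547, 0.356 and 0.445 RPM in +/+ and 0.243, 0.098 and 0.052 RPM in Δ/D329A (log2 difference -1.32 ± 0.37 SE, limma adjusted p = 0.718). None of the 6 passed the test.

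The values of the marks that chose the promoters are described without reading a result from them. For H3K4me3 and H3K27me3, limma called 0 of all promoters in either direction, which is 0% of those tested. At an unadjusted p under 0.05, 125 unmarked silent promoters were higher (1.92%) and 62 lower (0.952%) for H3K4me3, against 0.963% and 2.50% of all promoters. For H3K27me3, 227 were higher (3.48%) and 140 lower (2.15%), against 4.37% and 4.50% of all. edgeR called 0.0818% of all promoters higher and 0.378% lower for H3K4me3, and 0 of 413 unmarked silent ones. For H3K27me3 it called 0.777% of all higher and 0.4% lower, and of 5180 unmarked silent ones it called 4 higher (Gm13684, A930004D18Rik, Lmod2 and Atp6v1e2) and 0 lower. Rec8, a cohesin subunit of meiosis, had the largest H3K4me3 rise. It went from 0.095, 0.865 and 0.657 RPM in +/+ to 1.25, 3.16 and 2.90 RPM in Δ/D329A, so that the groups did not overlap, and its RNA reads, in the females, were 49 in the 5 +/+ and 44 in the 4 Δ/D329A libraries. The rise of Rec8 was called by limma only when promoters with a mean under 0.2 RPM were left out. Aqp6, a water channel of the kidney, had 0.569 to 0.698 RPM in +/+ and 1.25 to 2.13 RPM in Δ/D329A. Pstpip1, a cytoskeletal adaptor of blood cells, had 0.698 to 1.26 RPM and 1.29 to 1.87 RPM. Spon2, Gulo, Unc5cl and Gm12404 followed Rec8 in size of rise, and Gm13544, Mypn and Gm10466 had the largest falls.

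For H3K27me3, A930004D18Rik (chr2:18025193-18037737) had 1.26, 0.721 and 1.59 RPM in +/+ and 3.43, 1.72 and 3.61 RPM in Δ/D329A, and 150 and 46 RNA reads. Atp6v1e2, a subunit of the proton pump made in testis, had 0.755, 0.420 and 0.843 RPM in +/+ and 1.647, 1.471 and 1.498 RPM in Δ/D329A. Neither pair of groups overlapped. Gm11770, Gm13684 and Gm13568 were the other 3 of the 5 largest rises, and Gm16577, 4930596I21Rik and Gm6316 were the largest falls, each from under 1 RPM. The last 3 and Gm13684 start inside another expressed gene. Of the promoters above input for H3K27me3 in Δ/D329A, Rps2-ps6, Gm10479, Wee2, Gm11415 and Pilrb2 had the largest log2 ratios, from 1.37 to 1.65.

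In RNA, the floor at 0.9 reads has to be kept in mind. The Δ/D329A libraries were shallower, so a gene without a read in any library shows a log2 difference of 0.37, which was also the median over the 2111 unmarked silent genes that passed the filter of 0.1 RPKM in at least 4 libraries. Reads are therefore given. The rule had limited +/+ expression, and 4 Δ/D329A libraries alone could meet the filter, so the differences are described and not tested. Over all genes limma called 15 of 17839 higher in Δ/D329A (0.0841%) and 4 lower (0.0224%) at an adjusted p under 0.01. Among unmarked silent genes 1 was called higher, Matn1, and 1 lower, Mndal. At an unadjusted p under 0.05, 199 were higher (9.43%) and 37 lower (1.75%), against 4.61% and 3.02% of all genes. edgeR on recovered reads called 0.288% of all genes higher and 0.266% lower, and 4 unmarked silent genes of the 344 it tested were higher (Matn1, 2310006M14Rik, Tnnt1 and Iyd). DESeq2 called 0.826% higher and 0.733% lower, and of 1005 unmarked silent genes with an adjusted p it called 7 higher, the same 4 with Dusp27, Endou and Ttr, and Ttn lower.

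Matn1 (chr4:130944385-130955475), a matrix protein of cartilage, had 5, 3, 1, 0 and 1 reads in +/+ and 31, 30, 35 and 21 in Δ/D329A. The groups did not overlap. Its level was 0.066 ± 0.048 RPKM (SD, n = 5) and 1.19 ± 0.22 RPKM (SD, n = 4), and the log2 difference 4.46 ± 0.46 (SE). A single +/+ library reached 0.1 RPKM, so that Matn1 met the filter through Δ/D329A. The call was lost without any 1 of the Δ/D329A libraries, while the log2 difference stayed between 4.25 and 4.80. At its promoter, in the males, H3K4me3 was 0.566 ± 0.082 RPM (SD, n = 3) in +/+ and 0.5999 ± 0.160 RPM (SD, n = 3) in Δ/D329A, and H3K27me3 was 0.916 ± 0.117 and 1.40 ± 0.33 RPM.

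Mndal (chr1:173857221-173942491), of the interferon-inducible Ifi200 family, had 12, 10, 13, 12 and 21 reads in +/+ and 2, 0, 3 and 2 in Δ/D329A (log2 difference -2.49 ± 0.31 SE). The groups did not overlap. Its family members are similar in sequence, so that reads may be split among them. The call was lost without any 1 of the 9 libraries, while the log2 difference stayed between -2.69 and -2.23. RefSeq puts the nearest start of Mndal 62304 bp downstream of the start in the table. H3K4me3 at its RefSeq starts reached 1.77 RPM in +/+, against 1.17 RPM at the start in the table measured the same way. 2310006M14Rik (chr1:136181474-136207097) had 7, 0, 0, 1 and 3 reads in +/+ and 18, 24, 24 and 20 in Δ/D329A (log2 difference 3.97 ± 0.53 SE). Iyd (chr10:3540240-3554877), which recovers iodide in the thyroid, had 1, 0, 2, 3 and 3 reads in +/+ and 27, 8, 12 and 12 in Δ/D329A (log2 difference 3.30 ± 0.44 SE). In both genes every Δ/D329A library was above every +/+ library, for which they were named.

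**Figure D5:**
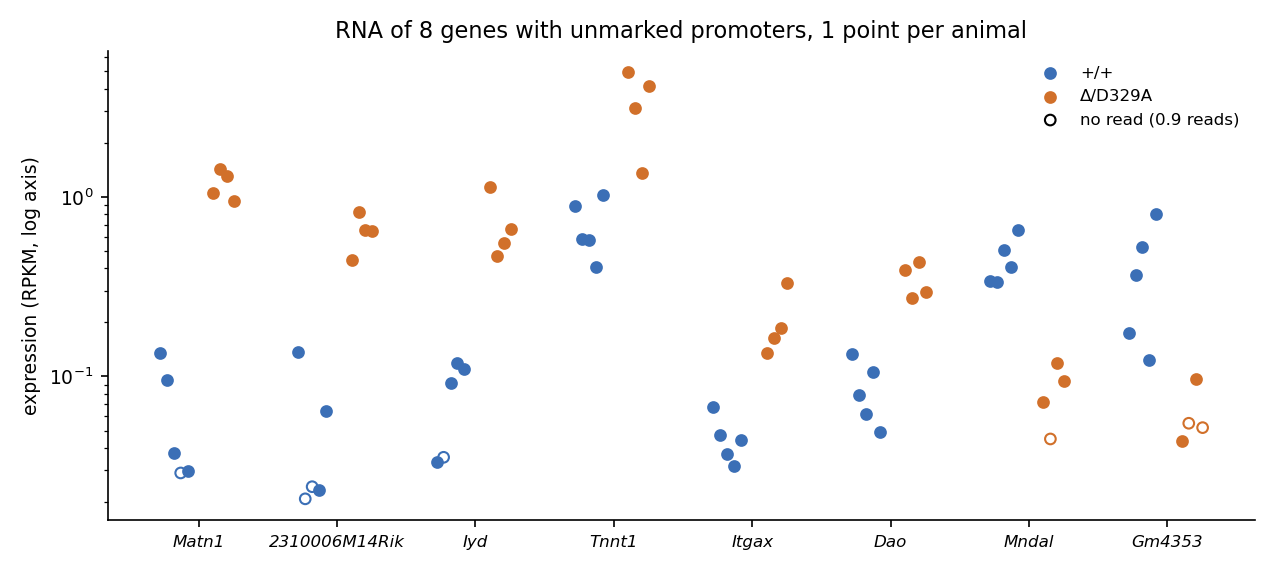
Expression (vertical axis, RPKM, logarithmic) of 8 genes with unmarked silent promoters, with 1 point per animal, +/+ in blue and Δ/D329A in orange, and open circles for libraries without a read, placed at 0.9 reads. Apart from Matn1 and Mndal, which were called, the genes were chosen because the genotypes did not overlap, so the lack of overlap is no result. Matn1 goes from at most 0.136 RPKM to at least 0.943 RPKM, and Mndal from at least 0.335 RPKM to at most 0.118 RPKM.

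Tnnt1 (chr7:4504570-4516382), the slow skeletal troponin T, had 36, 20, 17, 14 and 38 reads in +/+ and 160, 73, 40 and 102 in Δ/D329A. Its levels of 0.410 to 1.02 RPKM and 1.37 to 4.96 RPKM did not overlap. It is on the marker list of medial habenula and thalamus, whose 11 genes summed to 17.9 to 31.5 RPKM in +/+ and 22.9 to 48.2 RPKM in Δ/D329A with 0 of 10 tested called. The part of this tissue in the Tnnt1 value was not tested. Ttr, on the choroid plexus list, had 81 reads in +/+ and 181 in Δ/D329A, and the 10 genes of that list summed to 6.91 to 8.12 RPKM and 6.43 to 10.8 RPKM. None of its 8 tested genes was called by limma. The anterior pituitary list, with Gh, Cga, Tshb, Fshb and Pou1f1 among the unmarked silent genes, summed to 13.6 to 35.7 RPKM in +/+ and 7.27 to 22.6 RPKM in Δ/D329A. The list of melanocytes and meninges, with Tyr, Tyrp1 and Mlana among them, summed to 7.02 to 17.2 and 10.55 to 21.8 RPKM, with 1 gene called higher and Mlana without reads. Of the lists without an unmarked silent gene, cortical neurons summed to 2.11 to 3.002 and 2.77 to 3.93 RPKM, striatal neurons to 10.3 to 18.4 and 13.3 to 15.1 RPKM, and endothelial cells to 14.99 to 35.2 and 21.1 to 29.8 RPKM.

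The other genes named for a difference without overlap, on the RPKM scale, were not called by limma. Dao, the peroxisomal D-amino acid oxidase, had 6, 3, 2, 4 and 2 reads in +/+ and 14, 7, 14 and 8 in Δ/D329A. Itgax, an integrin of dendritic cells and microglia, had 5, 3, 2, 2 and 3 reads and 8, 7, 10 and 15. Ncf4, a subunit of the phagocyte oxidase, had 1, 0, 3, 6 and 0 reads and 11, 7, 7 and 7. Lcn2, an iron-scavenging protein of inflammation, had 0, 0, 0, 4 and 0 reads and 6, 5, 5 and 3. The 8 erythroid and blood cell markers summed to 13.9 to 43.2 RPKM in +/+ and 35.8 to 49.4 RPKM in Δ/D329A, with none called, none without reads and the ranges overlapping. Their part in these values was not tested. Aldh1a7 had 2, 5, 0, 7 and 2 reads and 8, 10, 10 and 11, Dusp27 had 8, 4, 2, 8 and 8 and 40, 17, 12 and 11, and Gm4353 had 5, 9, 11, 3 and 21 and 1, 0, 2 and 0.

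Families showed few reads in either genotype. The highest olfactory receptor in Δ/D329A was Olfr1344, with 10, 2, 6, 0 and 0 reads in +/+ and 6, 3, 9 and 0 in Δ/D329A. Vmn2r87 led the type 2 vomeronasal receptors with 91 reads in +/+ and 48 in Δ/D329A, and Vmn1r194 the type 1 receptors with a single library holding 1 read. Serpind1, an inhibitor of thrombin made in liver, had 11 to 75 reads in +/+ and 17 to 68 in Δ/D329A. Crybg3, listed by its symbol among the crystallins, had 57 to 86 and 35 to 66, and Defb1, an antimicrobial peptide, 3 to 7 and 6 to 12. The RefSeq start of Crybg3 lay 45295 bp upstream of the start in the table. It had 16.2 RPM of H3K4me3 in +/+, against 0.197 RPM at the start in the table. Adam4 of the testis had 11 to 68 and 14 to 31, Clec3b 6 to 18 and 6 to 15, Ugt1a5 4 to 15 and 4 to 17, and Tas1r3, a sweet and umami taste receptor, 4 to 13 and 3 to 13. Cyp11a1, the first enzyme of steroid synthesis, had 0 to 8 and 1 to 6 reads. H3K4me3 at its 2 RefSeq starts reached 6.19 RPM in +/+, against 0.216 RPM at the start in the table. Of these leading genes with reads, none was called by limma.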

How the data were processed

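The RNA libraries (NEBNext Ultra, ribosomal RNA removed, 50 bp single-end) and native ChIP libraries were trimmed and aligned to GRCm38 by the authors. The submitters' processing notes name Trim Galore 0.4.3, HISAT2 2.0.5, Bowtie2 2.3.2 and Bismark 0.19.0, and quantification was in SeqMonk. The deposited RNA values are log2 RPKM per gene, in which a gene without reads is set to 0.9 reads. The deposited ChIP values are signal, RPM in 2000-bp tiles every 1000 bp, with no input subtracted. Whole reads were recovered for 100% of genes within 0.02 reads and 100% of tile values within 0.01 reads. The RNA library kit is described as specific for the opposite strand, but whether counting used strand is not given in the sources used here, so overlapping and antisense genes may not be told apart. The authors left out a further Δ/D329A RNA library as of low quality. A gene and a promoter sequence that the rules below would name are not reported here. Bisulfite libraries and the overlap with methylation canyons were not analysed here.

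RNA was tested on the log2 RPKM values with limma 3.58.1 (R 4.3.3; trended prior, 0.1 RPKM in at least 4 libraries, Benjamini-Hochberg adjusted p under 0.01) in 5 +/+ against 4 Δ/D329A libraries. ChIP was tested with limma on log2(RPM + 0.1) over all 25965 promoters, 3 libraries against 3, at an adjusted p under 0.05, each fit holding its own libraries. edgeR 4.0.16 (quasi-likelihood) and DESeq2 1.42.0 were run on recovered reads. For ChIP, edgeR took the reads of the 1 tile nearest the middle of a promoter, while limma used the mean of its tiles. Other steps used Python 3.11.15 with pandas 2.3.3 for tables, scipy 1.17.1 for exact permutation tests and matplotlib 3.10.9 for plots. In simulated data with 200 changed features, limma recovered 155 RNA changes of 2 on the log2 scale (2 false calls).

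The promoters, family lists and marker lists were chosen with earlier results of these data known. The patterns for casein and interferon genes were narrowed after their matches were read. Genes were named by rule: those called in RNA and the 10 largest RNA differences without overlap, the largest H3K36me3, H3K4me3 and H3K27me3 differences, the highest and lowest H3K36me3, those above input, the highest gene of each family of 10 or more, the neighbours of each limit and the ends of the 3 longest runs. The genes inside hosts with the largest H3K36me3 ratio to input, the additional edgeR and DESeq2 calls, the genes with most reads, and Pax6, Sfmbt1 and 1700087M22Rik were added after their values were seen. Sequences came from the GRCm38.p6 genome, biotypes from GENCODE M21 by symbol (22735 of 25965 matched) and additional starts from RefSeq. Alternatives covered scale, filters, window, centring, tool, limits, block and each library left out.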

Additional observations from a re-analysis of the deposited data

Results flagged for a closer look

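In 3 groups of libraries a value stood apart from the others of its genotype by Dixon's criterion. The 62 groups examined were of named genes and of library-wide measures. Chance gives about 1 in 20 for normally distributed values, a rate that need not hold where many values lie at the floor. Each of the 3 values rests on 3 or 4 reads. Lcn2 was at 0.112 RPKM in +/+ library 4, with 4 reads, while the other 4 +/+ libraries had none. Il12a was at 0.119 RPKM in +/+ library 1, with 3 reads, and the other +/+ libraries had 0 or 1. Prl3c1 was at 0.290 RPKM in Δ/D329A library 4, with 3 reads, while no other library of either genotype had any.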

How the results depend on the processing

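The number of unmarked silent genes called in RNA, 1 higher and 1 lower, moved with the processing, and the cause was not tested. Higher calls were 7 with DESeq2, 4 with edgeR, 4 on log2(RPKM + 0.1), 3 with libraries centred on their median, 2 without a filter and 2 with a replicate block; lower calls were 0 with edgeR, without a filter and at 0.5 RPKM. Leaving out 1 library gave 0 to 3 higher and 0 lower. Over all genes, limma called 15 higher and 4 lower, edgeR 40 and 37, DESeq2 133 and 118. Among promoters with a mean of 0.2 RPM or more, 2 of 2988 unmarked silent ones were called higher in Δ/D329A for H3K4me3 (Rec8 and Unc5cl). For H3K27me3 4 of 6127 were (A930004D18Rik, Gm13684, Gm11770 and Atp6v1e2), and 4 with edgeR, against 0 each without this filter in limma. The shares of all promoters called with this filter are not given here, so nothing is read from these counts. Against input, centring gave 2554 higher and 94 lower for H3K36me3 (582 higher inside expressed genes, 1972 outside), 3872 and 604 for H3K27me3, and 0 higher for H3K4me3, where promoters of 0.2 RPM or more gave 10 and a replicate block 1. Centring shifted all promoters, so the counts with it are not read as a trait of the unmarked silent ones. Leaving out 1 replicate number, in the mark and in input alike, gave 0 to 1 higher and 3341 to 5551 lower for H3K4me3. For H3K27me3 it gave 543 to 698 higher. A limit of 1 RPM for H3K27me3 left 4077 promoters and gave a median H3K36me3 inside expressed genes of 1.12 RPM, against 1.04 RPM. An expression limit of -2 log2 RPKM gave 1.001 RPM, and surrounding genes of 2 log2 RPKM or more, which left 379 promoters inside, 1.15 RPM. The median outside was 0.452 RPM with that choice, with an H3K4me3 limit of 0.5 RPM and with limits on the Δ/D329A means, against 0.436 RPM. No named gene that was called changed sign. Medians over unmarked silent promoters did: with centring, from -0.70 to 0.48 for H3K36me3 against input, from -0.004 to 0.67 for H3K27me3 against input and from 0.07 to -0.14 for H3K36me3 between genotypes; without 1 library, between -0.24 and 0.26 for H3K4me3 and between -0.006 and 0.03 for H3K27me3 between genotypes; with edgeR, H3K36me3 and H3K27me3 medians between genotypes were -0.006 and -0.008, and input, from 0.007, was -0.03 with edgeR or centring. H3K36me3 at Gm10226 and Vmn2r48, not called, also changed sign. Each ChIP animal gave all 4 libraries, but equal numbers are not said to mark an animal, and numbers do not link the genotypes: correlations of deviations were -0.0543 to 0.137 in RNA, and in no comparison did every pair exceed 0.1. Beside the counts given, the block moved no count of unmarked silent promoters by over 1.5 times. With 3 against 3 simulated libraries, limma recovered 0 of 200 changes of 1 on the log2 scale for H3K36me3 and H3K4me3 and 21 for H3K27me3. The part of depth in this was not tested. Libraries of 3 against 3 also allow no exact permutation p under 0.1.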
